A study of Mus musculus with 6 samples.

Results

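NADPH oxidases are membrane enzymes that pass electrons from NADPH across a membrane to oxygen and so make superoxide or hydrogen peroxide on purpose. 9 symbols of subunits were looked up in the deposited gene table, namely Cybb, Cyba, Ncf1, Ncf4, Nox1, Nox4, Duox1, Duox2 and Rac2, and 7 of them were found among its 14526 genes. Cyba and Nox1 were not analysed here. The 9 symbols were picked with the comparison of the siRNAs already known, so the values of the 7 genes in that comparison are a description and no test of them is read. RNA was sequenced from NMuMG, an epithelial cell line grown from the normal mammary gland of a mouse, that turns mesenchymal when given TGF-beta. All 6 libraries came from cells under TGF-beta, taken at day 4, with siRNA given together with TGF-beta 16 hours after plating and both renewed on day 2. In 3 libraries (siMnt) the siRNA was against Mnt, the Max-binding repressor of transcription, and in the other 3 (siNTC) it was a non-targeting control. No untreated cells enter the comparison, and the labels give neither a dose of TGF-beta nor the number of siRNAs, and do not say whether replicates were separate cultures. P-values therefore measure only the spread between these libraries, which may be technical.

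In phagocytes the enzyme is built on a membrane pair, the electron-carrying Cybb (gp91phox, also called NOX2) and its partner Cyba (p22phox). It is switched on when cytosolic proteins, among them Ncf1 (p47phox) and Ncf4 (p40phox), and the GTPase Rac2 join the pair. Nox1 and Nox4 are relatives of Cybb that occur outside blood cells. Nox4 needs Cyba but no cytosolic activator, and it is known as a gene that TGF-beta raises in many cells. Duox1 and Duox2 are the long, calcium-regulated forms of epithelia, and they reach the surface with the help of the maturation factors Duoxa1 and Duoxa2.

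The libraries held 22323050 to 42193294 reads, and 1 read was worth between 0.646 and 1.23 normalised read counts. Mnt stood at 1316, 896 and 1596 normalised read counts in siNTC replicates 1, 2 and 3 and at 613, 557 and 749 in siMnt replicates 1, 2 and 3, so the groups did not overlap, and the log2 difference was -0.96 ± 0.22. Its limma adjusted p was 0.0546, which missed the threshold, but fitting replicate numbers as a block gave 0.00442, which passed. Within replicate numbers 1, 2 and 3 the log2 difference was -1.10, -0.68 and -1.09. SiNTC replicate 3 stood apart from its group on the first principal component, at -0.81 against -43.0 and -52.3 for the other controls and 29.4 to 35.5 for siMnt. Across genes its log2 values correlated most with siMnt replicate 3 (r = 0.987). With siNTC replicates 1 and 2 its r was 0.979 and 0.963, and with siMnt replicates 1 and 2 it was 0.974 and 0.972. The epithelial keratins Krt8 and Krt18 were at 38645 and 57047 normalised read counts in siNTC and at 36462 and 58031 in siMnt (means, n = 3), the 2 most abundant of 10 tested epithelial markers.

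Cybb was the member that set the siRNAs apart. In siNTC replicates 1, 2 and 3 it was at 33.2, 60.9 and 151 normalised read counts, and in siMnt replicates 1, 2 and 3 it was at 772, 712 and 424. Every siMnt library was above every siNTC library, and the control closest to siMnt was replicate 3, the control that also stood apart over all genes. The group means were 81.5 ± 61.3 and 636 ± 186 (SD, n = 3), a 7.80-fold ratio. On the log2(value + 1) scale the difference, siMnt minus siNTC, was 3.17 ± 0.50 (standard error), and 29 of the 12568 tested genes, 0.231%, had a difference at least as large in that direction. Between libraries of the same replicate number the ratio differed widely: it was 23.3 for number 1, 11.7 for number 2 and 2.82 for number 3. In reads, the low control values rest on 38, 55 and 233 reads and the siMnt values on 714, 597 and 346.

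3 of the 7 members, Cybb, Ncf1 and Rac2, averaged 10 or more normalised read counts over the 6 libraries and entered the fit across all genes. The siNTC mean of Rac2, 9.59, and the siMnt mean of Ncf1, 9.05, would not have reached that level alone. 1 of the 3, Cybb, was past the threshold there, beside 3.93% of all tested genes called in either direction and 2.56% called as higher in siMnt. Cybb was also the single member of the 7 whose groups did not overlap, beside 30.4% of all genes of the table. Nothing about the members is read from these counts, since the comparison was known when they were chosen. With 1 library left out at a time, the log2 difference of Cybb lay between 2.67 (without siNTC replicate 1) and 3.74 (without siNTC replicate 3). By limma Cybb was past the threshold only without siNTC replicate 3 or siMnt replicate 3. It was not past it without siNTC replicate 2, although 217 genes were called there. By edgeR it was past the threshold only without siNTC replicate 3. Leaving out siNTC replicate 1, or either of siMnt replicates 1 and 2, left limma with 0 called genes in the whole table, although 2193, 1816 and 1920 were under 0.05 before adjustment, and edgeR called 0 in each as well.

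**Figure D1:**
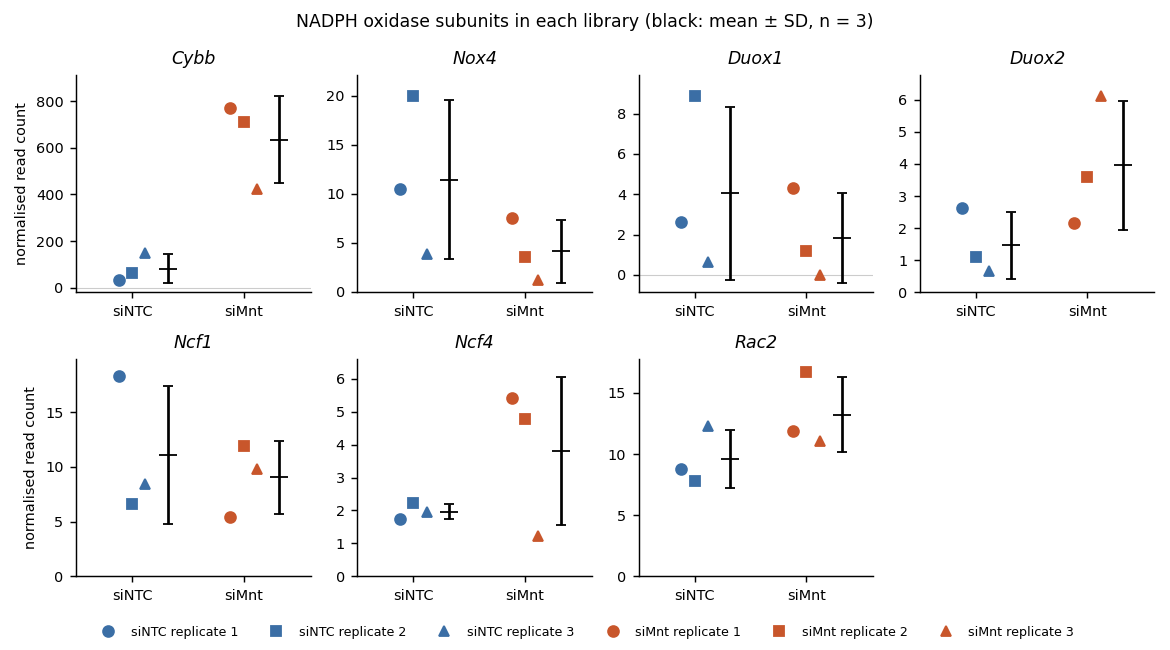
Normalised read count (vertical axis, linear, a scale of its own in each panel) of the 7 NADPH oxidase subunits in the table, by siRNA; symbols are libraries and the black bars mean ± SD (n = 3). Cybb sits between 33.2 and 151 in siNTC and between 424 and 772 in siMnt, while the groups of the other 6 genes overlap, none of them above 20 in any library.

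The other electron-carrying subunits were close to the limit of detection. Nox4 was at 10.5, 19.9 and 3.88 normalised read counts in siNTC replicates 1, 2 and 3 (12, 18 and 6 reads) and at 7.57, 3.58 and 1.23 in siMnt replicates 1, 2 and 3 (7, 3 and 1 reads). The groups overlapped, because siNTC replicate 3 lay below siMnt replicate 1. Within each replicate number siMnt was the lower, with log2 differences of -0.42, -2.19 and -1.13.

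Duox1 was at 2.62, 8.86 and 0.646 in siNTC and at 4.32, 1.19 and 0 in siMnt, which is 8 reads or fewer in every library. The count of 0 in siMnt replicate 3 allows up to 3 reads, or 3.68 normalised read counts, counting error only. Duox2 was at 2.62, 1.11 and 0.646 in siNTC and at 2.16, 3.58 and 6.13 in siMnt, with 5 reads at most. Differences in either Duox gene were not detectable at this depth. Duox1 and Duox2 are close relatives, and the treatment of reads shared between such genes is not stated in the sources used.

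Duoxa1, the maturation factor of Duox1 and its neighbour on chromosome 2, was chosen beside it after the values were seen. Duoxa1 was at 20.1, 28.8 and 5.81 in siNTC and at 4.32, 2.39 and 3.68 in siMnt. All siMnt libraries were below all siNTC libraries, with the controls spread over a wide range, and it did not pass (log2 difference -1.89 ± 0.62, limma adjusted p = 0.121). Its siMnt mean, 3.46, was below 10, so it was tested only through its siNTC values. Like Duox1 and Nox4, Duoxa1 had its highest value in siNTC replicate 2 and its lowest control value in siNTC replicate 3.

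Of the cytosolic and GTPase members, none was above 20 normalised read counts. Ncf1, the organiser that carries the phosphorylation switch, was at 18.3, 6.65 and 8.40 in siNTC and at 5.41, 11.9 and 9.80 in siMnt, with no order between the groups (log2 difference -0.21 ± 0.52). The sign of the Ncf1 difference turned without siNTC replicate 1 (0.19) or siMnt replicate 1 (0.08). Ncf4 was at 1.75, 2.22 and 1.94 in siNTC and at 5.41, 4.77 and 1.23 in siMnt. That is 1 to 5 reads in each library, and the lowest value of all was in siMnt.

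Rac2, the Rac form of blood cells, was at 8.73, 7.75 and 12.3 in siNTC and at 11.9, 16.7 and 11.0 in siMnt. The groups overlapped, with siNTC replicate 3 above 2 of the siMnt libraries, and the log2 difference was 0.43 ± 0.40.

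Levels can be set side by side between genes only per length, as reads per kilobase of the longest GENCODE M21 transcript and per 1000000 reads (RPKM), which is not the annotation behind the table. Cybb was at 0.247, 0.467 and 1.16 RPKM in siNTC and at 5.85, 5.63 and 3.26 in siMnt. Its mean ranked above 22.1% of 14305 genes in siNTC and above 41.6% in siMnt, so that it stayed in the lower part of the table. Nox4, Duox1 and Duox2 together were at 0.0446 to 0.253 RPKM in siNTC and at 0.0480 to 0.112 in siMnt. Of the summed RPKM of these 4 electron-carrying genes, Cybb made up 66.0%, 64.9% and 96.3% in siNTC replicates 1, 2 and 3 and 98.1%, 98.9% and 98.5% in siMnt. SiNTC replicate 3 lay with siMnt in this share. Nox1 is not among the 4.

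Noxo1, Rac3 and Rac1 were chosen after the values were seen, as direct relatives of the members. Noxo1, the epithelial relative of Ncf1 that organises Nox1, was at 39.3, 36.6 and 71.1 normalised read counts in siNTC and at 81.1, 85.9 and 74.7 in siMnt. The groups did not overlap, by a narrow margin against siNTC replicate 3 (log2 difference 0.77 ± 0.30, limma adjusted p = 0.172). Rac1, the Rac form found in nearly all cells, was at 10222, 7627 and 10538 in siNTC and at 13624, 12293 and 12597 in siMnt, again with no overlap (log2 difference 0.45 ± 0.15, limma adjusted p = 0.126). On the RPKM scale Rac1 was at 82.2 in siNTC and 113 in siMnt, against 0.114 and 0.160 for Rac2 and 2.19 and 2.45 for Rac3. Rac2 was 0.117% to 0.186% of the summed RPKM of Rac1 and Rac2 in all 6 libraries. Rac1, Rac2 and Rac3 are similar in sequence, so some reads may be shared.

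**Figure D2:**
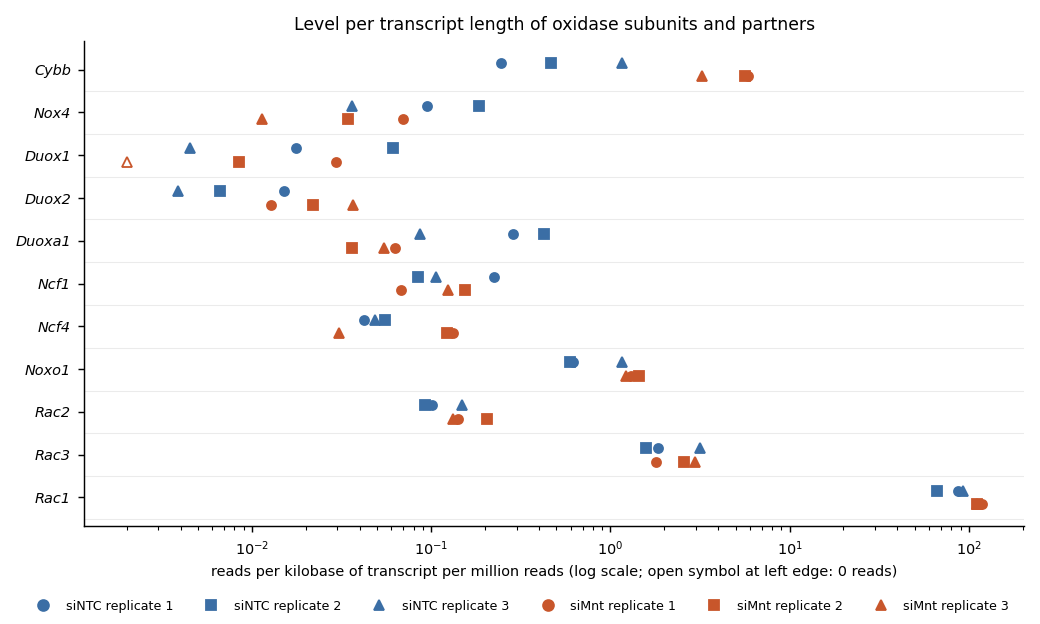
RPKM (horizontal axis, log scale) of electron-carrying subunits, Duoxa1, cytosolic subunits and Rac GTPases, 1 symbol per library. Cybb lies below 1.2 in the controls and above 3.2 in siMnt, and Rac1 is the highest of the genes shown in every library.

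Among 16 symbols of other subunits and assembly factors, older names included, 11 were tested, and 0 passed over all genes by limma. Before adjustment 3 were under 0.05, beside 23.4% of all tested genes, and edgeR and DESeq2 called 0 each, beside 3.54% and 11.6%. Their median log2 difference was 0.13, beside -0.01 over all tested genes. P4hb, a protein disulfide isomerase reported to bind oxidase subunits, and Rac1 were the 2 most abundant members. P4hb was at 28537 ± 669.7 and 31318 ± 1573 normalised read counts (log2 difference 0.13 ± 0.13). When replicate numbers were fitted as a block 2 members were higher, Rac1 and the adaptor Sh3pxd2a (named after its values were seen), beside 15.9% of all tested genes called in that fit. Without siNTC replicate 3 Noxo1 was called as higher and Duoxa1 as lower, beside 16% of all tested genes. Cybc1, the chaperone that stabilises the pair of Cybb and Cyba in phagocytes, was looked at for its role. Cybc1 was at 1340, 1500 and 1504 in siNTC and at 1194, 1314 and 1267 in siMnt, slightly lower in every siMnt library (log2 difference -0.20 ± 0.11, limma adjusted p = 0.322). The proton channel Hvcn1, which balances the charge that the oxidase moves, was also looked at for its role, and had log2 difference 0.42 ± 0.18 (limma adjusted p = 0.217).

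Upstream kinases, exchange factors and Rac regulators were tested as a list of 17 genes, of which 1 rose and 0 fell, a share near the 3.93% of all tested genes called. The gene that rose was Arhgdib, an inhibitor that holds Rac-type GTPases in the cytosol and is typical of blood cells. Arhgdib was at 84.7, 104 and 99.5 normalised read counts in siNTC and at 297, 258 and 183 in siMnt, with a wide gap between the groups (log2 difference 1.32 ± 0.23, limma adjusted p = 0.0282). It did not pass without siNTC replicate 1 (adjusted p = 0.118), siMnt replicate 1 (0.162) or siMnt replicate 2 (0.139). Its widely expressed relative Arhgdia was at 12398 ± 757 and 13133 ± 645 (log2 difference 0.08 ± 0.12, limma adjusted p = 0.713), and Rap1b, the most abundant of the list, had log2 difference -0.12 ± 0.17. Under that block 1 was higher and 1 lower, the latter Trio, an exchange factor named after its values were seen. Without siNTC replicate 3 there were also 1 higher and 1 lower, here Pla2g4a, a phospholipase. Over all tested genes 15.9% were called with the block and 16% without siNTC replicate 3. Vav1, the exchange factor of blood cells, was at 0.873, 1.11 and 3.23 in siNTC and at 13.0, 5.97 and 2.45 in siMnt, under the filter on low values. The list median was -0.02.

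Of 11 tested transcription factors known to act on phagocyte oxidase genes 1 rose and 0 fell, beside 3.93% of all tested genes called. The list was chosen with earlier results of these data known, so this count is a description. Irf8, an interferon regulatory factor of myeloid cells that is known to act on Cybb together with PU.1, was at 22.7, 28.8 and 52.3 normalised read counts in siNTC and at 159, 119 and 91.9 in siMnt. The order of the libraries was the same as for Cybb, siNTC replicate 3 being the highest control and siMnt replicate 3 the lowest of its group. These 2 libraries were also nearest the other group on the first principal component over all tested genes (-0.81 and 29.4). Whether Irf8 acts on Cybb in these cells was not tested. The log2 difference was 1.86 ± 0.36 (limma adjusted p = 0.0368). The call of Irf8 was lost without siNTC replicate 1 (adjusted p = 0.141), siNTC replicate 2 (0.070), siMnt replicate 1 (0.182), siMnt replicate 2 (0.153) or siMnt replicate 3 (0.067).

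Spi1, which encodes PU.1 and is named here for that role, was at 10.5, 14.4 and 11.0 in siNTC and at 41.1, 59.7 and 15.9 in siMnt. Its groups did not overlap, but siMnt replicate 3 lay near the controls, and it did not pass (log2 difference 1.45 ± 0.49, limma adjusted p = 0.131). Under the block Spi1 was called with Irf8, and DESeq2 called 2 as well, while without siNTC replicate 3 Irf8 and Cebpa were called, both higher. The shares of all tested genes called were 15.9% with the block, 11.6% by DESeq2 and 16% without that library. The most abundant of these factors, Nfkb1 and Irf1, had log2 differences of -0.23 ± 0.12 and 0.09 ± 0.20. The list median was 0.09.

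**Figure D3:**
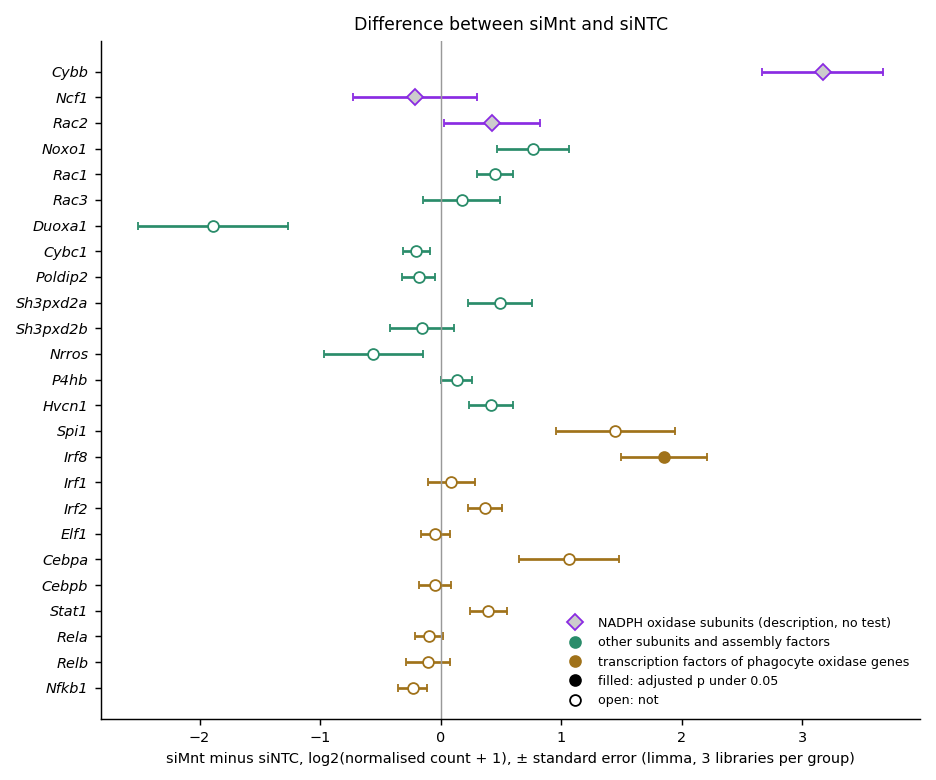
Difference between siMnt and siNTC on the log2(normalised count + 1) scale (horizontal axis, ± standard error, limma, 3 libraries per group) for the 3 tested members, the other subunits and the transcription factors. Grey diamonds are members, given as a description, with Cybb at 3.17. Among the circles Irf8 at 1.86 is filled, meaning an adjusted p under 0.05, and the other subunits are all open.

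The start of Cybb is shown because the gene carries the difference between the siRNAs and because Mnt with Max, and PU.1, bind known short sequences. The table of RefSeq promoters (build GRCm38.p6, 250 bases before to 50 after each start) held 5 of the 7 members, namely Cybb, Nox4, Duox1, Duox2 and Ncf1. The line gives the 250 bases before the start of Cybb at chrX:9469325-9469574, minus strand, with the match to CANNTG in capitals.
Cybb upstream: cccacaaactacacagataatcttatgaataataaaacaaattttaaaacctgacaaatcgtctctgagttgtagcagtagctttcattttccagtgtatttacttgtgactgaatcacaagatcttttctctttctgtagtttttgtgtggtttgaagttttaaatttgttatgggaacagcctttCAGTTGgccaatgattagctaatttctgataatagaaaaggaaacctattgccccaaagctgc

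5 motifs are given here, each searched on both strands at any position, and all were chosen with the values known; 1 longer motif that was also searched is not reported. CACGTG, the E-box bound by Mnt with Max, was in 7.15% of all 32851 promoter windows and in 0 of the 5 members' windows. CANNTG, the general E-box that includes CACGTG, was in 72.3% of all windows and in those of Cybb, as CAGTTG from 63 bases before the start, and Nox4. GAGGAAGT, a longer PU.1-type site, was in 3.20% of all windows and in none of the members'. The core GGAA of such sites, which GAGGAAGT contains, was in 96.0% of all windows and in all 5, and GGGAAA was in 25.2% and in that of Duox2. A match describes these letters only.

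Markers of blood cells were followed because Cybb, Ncf1, Ncf4 and Rac2 are best known there. All marker lists were chosen with earlier results of these data known, so their counts of called or separated genes are a description. Of 26 macrophage symbols 17 were in the table and 11 were tested, Spi1 among them, of which 4 rose and 0 fell, beside 3.93% of all tested genes called. Of the 17, 11 were higher in every siMnt library than in every siNTC library, 0 were lower and 6 overlapped, beside 30.4% of all genes with groups apart in either direction. The summed level of the 17 was 2632 to 3135 normalised read counts in siNTC and 4044 to 4270 in siMnt. Csf1r made up most of that difference: without it the sum was 1875 to 2152 in siNTC and 2187 to 2265 in siMnt. Ptprc, which encodes the pan-leukocyte surface protein CD45, was at 3.49, 6.65 and 1.29 in siNTC and at 3.24, 3.58 and 2.45 in siMnt, near 0 in both groups and overlapping. Coro1a, another gene of leukocytes, was at 1.94 to 7.75 in siNTC and at 2.16 to 5.97 in siMnt. Both were looked at for their role. Of the other markers under the filter on low values, Lyz2, Aif1 and Cx3cr1 had means of 2.92, 2.69 and 1.31 in siNTC and 8.38, 8.09 and 2.69 in siMnt, with no overlap between groups after normalisation. They rest on few reads. Lyz2 had 4, 3 and 3 reads in siNTC and 11, 7 and 4 in siMnt. Aif1 had 3, 2 and 5 in siNTC and 9, 5 and 7 in siMnt. Cx3cr1 had 1, 1 and 3 in siNTC and 3, 2 and 2 in siMnt, so its reads overlapped. For Lyz2 and Aif1 the lowest siMnt count equalled the highest siNTC count, so the gap between groups rests on the normalisation there too. Lyz2, Aif1, Cx3cr1 and Cd53, all under the filter, are among the 11 higher in every siMnt library. Fcgr3 and Mrc1 had means of 6.28 and 93.2 in siNTC and 14.8 and 138 in siMnt, again with no overlap, and did not pass (limma adjusted p = 0.159 and 0.139). The siNTC mean of Fcgr3 alone would not have reached the filter. Adgre1, Tyrobp, Fcer1g and the C1q genes were not analysed here.

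The markers that rose were Csf1r, the receptor of the macrophage growth factor, Mpeg1, Cd52 and the integrin Itgam. Csf1r was at 757, 881 and 1196 in siNTC and at 2074, 1995 and 1856 in siMnt (log2 difference 1.09 ± 0.17, limma adjusted p = 0.0242). Mpeg1, a perforin-like gene of macrophages, was at 14.8, 12.2 and 36.2 in siNTC and at 354, 297 and 211 in siMnt (log2 difference 3.83 ± 0.41, limma adjusted p = 0.0116). In both genes siNTC replicate 3 was the highest control and siMnt replicate 3 the lowest of its group, as for Cybb. Cd52 and Itgam were low, with means of 6.60 and 6.02 in siNTC and 36.0 and 23.9 in siMnt (adjusted p = 0.0435 and 0.0493, limma). Their siNTC means alone would not have reached the filter of 10, so both were tested only through their siMnt values. Cd53, a leukocyte tetraspanin named after its values were seen, was at 0 reads in every siNTC library and at 10.8, 7.16 and 6.13 in siMnt (10, 6 and 5 reads). Each siNTC count of 0 allows up to 3 reads, or 1.94 to 3.32 normalised read counts, counting error only. The most abundant markers besides Csf1r did not pass: Cd14 was at 1394 ± 136 and 1258 ± 115 (log2 difference -0.15 ± 0.13), and Cd68, looked at for its role, was at 190.5 ± 67.8 and 164 ± 45.8. Laptm5 had means of 148 and 112. The calls of Csf1r, Mpeg1, Cd52 and Itgam were all lost without siNTC replicate 1 (adjusted p = 0.0988, 0.0776, 0.142 and 0.167), siMnt replicate 1 (0.144, 0.0837, 0.170 and 0.239) or siMnt replicate 2 (0.124, 0.0938, 0.185 and 0.154). Those of Cd52 and Itgam were also lost without siNTC replicate 2 (0.0772 and 0.0849), and those of Csf1r, Cd52 and Itgam without siMnt replicate 3 (0.0615, 0.114 and 0.140). In bulk RNA, more cells of a type and more RNA per cell cannot be told apart, and which cells held the Cybb reads was not tested.

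Neutrophil markers were sparse. Of 12 symbols 5 were in the table and 2 were tested, of which 1 rose and 0 fell, beside 3.93% of all tested genes called. S100a8 rose from 46.7 ± 8.71 to 126 ± 8.02 (log2 difference 1.43 ± 0.23, limma adjusted p = 0.0242). S100a8 is also made by epithelia, and its call was lost without siNTC replicate 1 (adjusted p = 0.102), siMnt replicate 1 (0.149), siMnt replicate 2 (0.129) or siMnt replicate 3 (0.0662). The summed level of the neutrophil list was 52.4 to 63.3 in siNTC and 129 to 169 in siMnt. Without S100a8 the sum was 8.40 to 14.8 in siNTC and 11.0 to 42.2 in siMnt, which overlap. Under the filter, S100a9 was higher and Ltf lower in every siMnt library, each at 7 reads or fewer. Ly6g and Cxcr2 overlapped, and these 4 genes were named after their values were seen. Of 12 lymphocyte symbols 4 were in the table, summing to 24.5 to 41.0 in siNTC and 30.6 to 70.4 in siMnt, and 0 of 2 tested passed by limma (0 at an unadjusted p under 0.05, and 0 by edgeR or DESeq2). Over all tested genes the shares were 3.93% by limma, 23.4% before adjustment, 3.54% by edgeR and 11.6% by DESeq2.

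Of the 10 tested epithelial markers 0 passed by limma, 2 were under 0.05 before adjustment, edgeR called 0 and DESeq2 1, and the median log2 difference was -0.02. Over all tested genes the shares were 3.93% by limma, 23.4% before adjustment, 3.54% by edgeR and 11.6% by DESeq2. The genes of these marker lists other than Esam and Cdh5 were named after their values were seen. The tight junction gene Cldn4 was at 272, 485 and 77.5 in siNTC and at 83.3, 100.2 and 63.7 in siMnt, with siNTC replicate 3 among the siMnt values (log2 difference -1.41 ± 0.59, limma adjusted p = 0.198, and 0.0254 with the block). Cdh1, which encodes E-cadherin, was at 6495, 5813 and 10319.9 in siNTC and at 11109, 9742 and 10867 in siMnt (log2 difference 0.53 ± 0.21, limma adjusted p = 0.179, and 0.0474 with the block). The splicing regulator Esrp1 had means of 17.8 and 8.55 with no overlap (limma adjusted p = 0.248). Of 3 tested endothelial markers 1 rose by limma, 2 were under 0.05 before adjustment, edgeR called 1 and DESeq2 2, beside the same shares of all tested genes. Esam, an adhesion molecule, rose from a mean of 9.73 to 37.6 (log2 difference 1.88 ± 0.36, limma adjusted p = 0.0353). The siNTC mean of Esam alone would not have reached the filter of 10. Its call was lost without siNTC replicate 1 (adjusted p = 0.139), siNTC replicate 2 (0.0660), siMnt replicate 1 (0.180), siMnt replicate 2 (0.166) or siMnt replicate 3 (0.0861). Cdh5, which encodes VE-cadherin, was at 96.1, 80.9 and 63.3 in siNTC and at 41.1, 32.2 and 47.8 in siMnt, with no overlap (log2 difference -0.97 ± 0.27, limma adjusted p = 0.0836, and 0.0435 with the block).

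**Figure D4:**
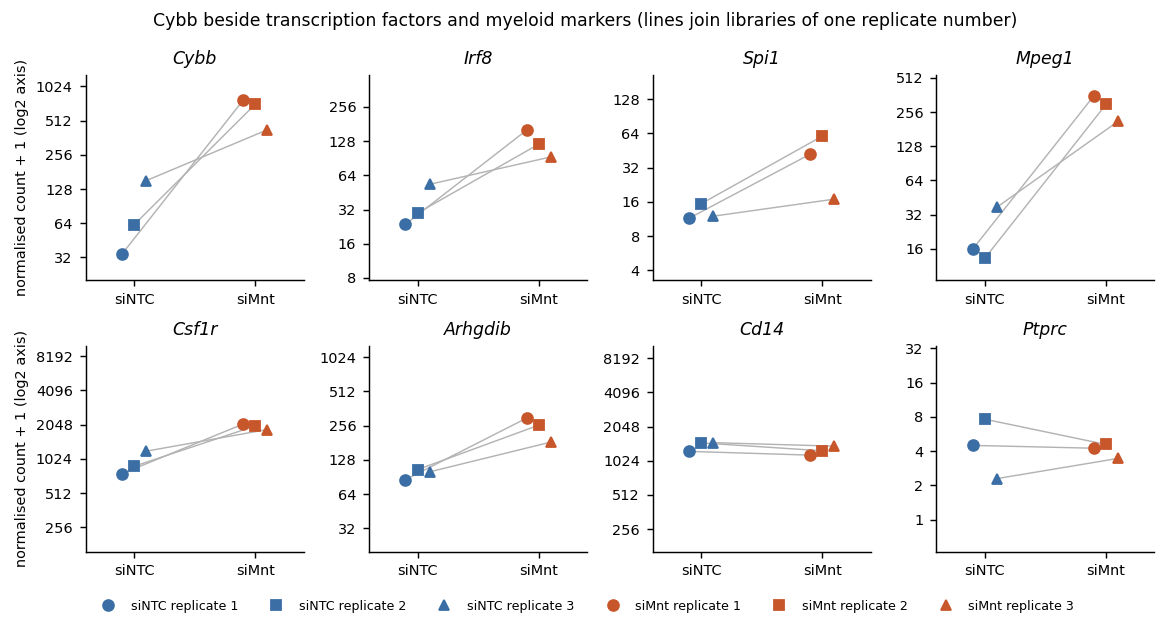
Normalised read count plus 1 (vertical axis, log2, every panel spanning the same fold range) of Cybb, transcription factors, myeloid markers, Arhgdib and Ptprc, with lines joining libraries of the same replicate number. In Cybb, Irf8, Mpeg1 and Csf1r replicate number 3 has the smallest step, while the groups of Cd14 overlap and the count of Ptprc stays below 7 in all libraries.

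The genes with the profile most like that of Cybb over the 6 libraries, by the root mean square distance between centred log2(value + 1) values, were Aldh1a7 (0.09) and Aldh1a1 (0.18), against a spread of Cybb around its own mean of 1.73. Both are cytosolic aldehyde dehydrogenases. Aldh1a7 was at 48.9, 79.8 and 182 normalised read counts in siNTC and at 1009.9, 878 and 522 in siMnt. Aldh1a1 was at 150.2, 261 and 503 in siNTC and at 3781, 3299 and 1952 in siMnt. The 2 are close paralogs, so their reads may be shared and their values are uncertain. Rac2 was most like Glyctk (0.06) and Spata20 (0.10), and Ncf1 most like 3300002I08Rik (0.22) and Mfsd4b4 (0.24), against spreads of 0.33 and 0.52. These likenesses rest on 6 libraries and were picked from 12568 genes.

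Many enzymes that remove the products of the oxidases were present at high levels. Gpx3 and Gpx8, named here for their low values, had means of 26.0 and 45.2 in siNTC and 40.2 and 27.6 in siMnt. Of 18 tested genes of superoxide and hydrogen peroxide handling 0 passed by limma, 4 were under 0.05 before adjustment, 0 passed by edgeR and 3 by DESeq2. Over all tested genes 23.4% were under 0.05 before adjustment and 11.6% passed by DESeq2, so these counts are near the background. The most abundant, the peroxiredoxins Prdx1 and Prdx6, were at 24171 ± 2571 and 11040 ± 2448 normalised read counts in siNTC and at 23481 ± 160.5 and 9023 ± 561 in siMnt. Under the block the secreted superoxide dismutase Sod3 was higher and the glutathione peroxidase Gpx1 lower, both named after their values were seen. Sod3 was at 1321, 1093 and 1687 in siNTC and at 2042, 1989 and 2071 in siMnt, and Gpx1 at 3415, 4653 and 2751 in siNTC and at 1759, 1926 and 2197 in siMnt. Neither pair of groups overlapped (log2 differences 0.60 ± 0.16 and -0.85 ± 0.19, limma adjusted p = 0.0798 and 0.0527 without the block). Without siNTC replicate 3 the list had 1 gene higher and 2 lower. Over all tested genes 15.9% were called with the block and 16% without that library. The list median was 0.05.

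Haem peroxidases, which use hydrogen peroxide, and aquaporins, some of which let it through membranes, gave 6 tested genes, of which 0 passed by limma. 4 had an unadjusted p under 0.05, beside 23.4% of all tested genes, and edgeR and DESeq2 called 0 each, beside 3.54% and 11.6%. The peroxidase Pxdn, of the basement membrane, was at 4807 ± 1141 and 4680 ± 1045 (log2 difference -0.04 ± 0.21). Aqp1, named after its values were seen, was at 77.7, 215 and 715 in siNTC and at 1154, 877 and 765 in siMnt, with siNTC replicate 3 close to siMnt (log2 difference 2.00 ± 0.67, limma adjusted p = 0.127). Aqp9 was at 999 ± 312 and 646 ± 129 (log2 difference -0.60 ± 0.25, limma adjusted p = 0.206). Under the block Aqp1 was higher and Aqp9 lower, and without siNTC replicate 3 Aqp1 alone passed. The shares of all tested genes called were 15.9% with the block and 16% without that library.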

How the data were processed

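1 table was deposited by the authors, with 14526 genes and 6 libraries, and its values are a normalised signal that is never negative. TopHat2 2.1.0, DESeq 3.5, DESeq2 and the build mm9 stand in the submitters' processing notes. Counting tool, annotation and filters are not given in the sources used. From the values, each is a read count divided by 1 factor per library: 99.75% of values above 0 came within 0.05 of a whole read. Tests used log2(value + 1) of the 12568 genes averaging 10 or more (1958 fell short), fitted with limma 3.58.1 (R 4.3.3, trend, Benjamini-Hochberg, threshold 0.05) on 6 libraries. On simulated reads for 12565 tested genes, 70.7% of genes changed by 1 on the log2 scale and 89.9% of those changed by 2 were called. There, 11 unchanged genes were called as well. The simulated reads were drawn independently for each gene and library, with no control standing apart. These shares therefore need not hold for the real libraries. Samples were grouped by their titles, whose replicate numbers were used as a block only in an alternative fit. Same-numbered libraries deviated together (r = 0.28, 0.50 and 0.35 across genes; other pairs -0.38 to 0.03), a pairing that comes from the numbers and the data. Deviations were taken from group means and cancel within a group, so positive values for same-numbered pairs force lower ones in the others. Alternatives included edgeR 4.0.16 and DESeq2 1.42.0 on the recovered reads. The members and the 5 pathway and 6 marker lists were chosen with earlier results of these data known. 1 gene of the list of other subunits is not reported here and was left out of that list's counts and median. The genes named by rule were Mnt, all members, in each pathway list those that passed (up to 4) and the 2 most abundant, in each marker list those that passed and the 2 most abundant, and 2 genes most like each tested member. Of the marker lists, the fibroblast list (0 of 4 tested passed by limma, 1 at an unadjusted p under 0.05, 0 by edgeR, 1 by DESeq2) is given here alone. Over all tested genes those shares were 3.93%, 23.4%, 3.54% and 11.6%. Python 3.11.15 and pandas 2.3.3 were used.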

Additional observations from a re-analysis of the deposited data

How the results depend on the processing

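The number of genes that passed, 494, was 1998 with the replicate number as a block, 967 after GC and length trends were removed (an alternative added with the data in view), 1457 by DESeq2, 322 with a mean of at least 50, 306 without the variance trend and 1336 at a threshold of 0.1. It ranged from 0 to 2012 when each library was left out. The count of members past the threshold, given as a description, was 1, and 0 to 1 without each library. Counts of other subunits and assembly factors, 0, became 2 with the block and 0 to 2 without each library; upstream regulators, 1, became 2 with the block, 2 after the GC and length correction and 0 to 2 without each library. Superoxide and peroxide handling, 0, became 2 with the block, 3 after the GC and length correction, 3 by DESeq2, 2 at a threshold of 0.1 and 0 to 3 without each library. Peroxidases and aquaporins, 0, became 2 with the block and 0 to 1 without each library, and transcription factors, 1, became 2 with the block, 2 by DESeq2 and 0 to 2 without each library. Mnt passed with the block (-0.96, adjusted p = 0.00442), after the GC and length correction (-1.04, 0.0149) and by DESeq2 (-0.98, 0.0014), and without each library its log2 difference was -1.19 to -0.77, passing without siNTC replicate 2 or 3.

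Some values near 0 changed sign without a library, with log2 differences from -0.48 to 0.19 for Ncf1, -0.11 to 0.040 for Prdx1, -0.20 to 0.14 for Pxdn, -0.14 to 0.25 for Irf1, -0.27 to 0.42 for Lck, -0.11 to 0.29 for Krt18, -0.20 to 0.023 for Krt8, -0.37 to 0.25 for 3300002I08Rik and -0.17 to 0.27 for Mfsd4b4. After the GC and length correction Prdx1 (0.057) and 3300002I08Rik (0.020) were positive. The cause was not tested. Of the single genes followed, the block newly called Rac1, Aqp9, Pdgfrb and Cdh5 and ended no call. Of 551 values of 33 single genes that are not members over these settings, 489 kept direction and side of the threshold, 41 no longer passed, 7 newly passed and 14 changed sign. With 8 reads or fewer, Duox1, Duox2 and Ncf4 are limited by depth.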
